A study of Mus musculus with 16 samples.

Results

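The subject is a set of 3 mouse microRNAs (miRNAs) known from fat tissue, mmu-miR-193b, mmu-miR-365 and mmu-miR-378, written below without the species prefix, among the 611 mouse miRNAs on the array and the 321 that could be tested. They were picked by name because earlier results from these same arrays showed them lower in injured arteries, so their own differences from uninjured arteries are given as a description, with no test. All arteries were carotid arteries of female ApoE-/- mice on a C57BL/6 background, and all mice received a western-type diet. Without apolipoprotein E, mice develop atherosclerosis readily, and the uninjured mice shared this genotype and diet with the injured ones. There were 3 uninjured arteries, and 3 each were taken 1, 7 and 14 days, and 4 were taken 28 days, after injury with a wire. The mice were 8 weeks old in the day 1 group and 6 to 8 weeks old in the other groups. Each artery was measured on 1 of 16 Agilent one-colour arrays, and the series' design states 3 to 4 animals per group, so p-values refer to the spread between these animals. Whether fat around the vessel was trimmed away before RNA extraction is not given in the sources used here.

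A miRNA is a short RNA that pairs with messenger RNAs, mainly through its seed, and lowers their output. The genes of miR-193b and miR-365 lie close together and form a cluster that is known to be active in brown fat and to rise as brown fat cells differentiate in culture. miR-378 is made from an intron of Ppargc1b, the gene of a coactivator of mitochondrial metabolism. It is known to act on mitochondrial metabolism and lipid storage, and it is abundant in skeletal and heart muscle as well as in fat.

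The mature sequences of the cluster are shown because they decide what a probe can tell apart. They come from RefSeq on the build GRCm38.p6, are written 5′ to 3′, and have the seed, bases 2 to 8, in capitals. RefSeq held 2 of the 3 miRNAs, miR-193b and miR-365, and also miR-193, the close relative of miR-193b, taken here as the present miR-193a-3p. The miR-378 sequence is not shown.
miR-193b: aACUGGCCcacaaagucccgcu
miR-193: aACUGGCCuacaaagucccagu
miR-365: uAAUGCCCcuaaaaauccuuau
miR-193b lies at chr16:13449570-13449591 on the plus strand. miR-365 has 2 genes, Mir365-1 at chr16:13453895-13453916 and Mir365-2 at chr11:79726467-79726488, both on the plus strand. miR-193 lies beside the second of these, at chr11:79712009-79712030, on the plus strand. The mature miR-193b and miR-365 of chromosome 16 are 4303 bases apart, and those of miR-193 and miR-365 on chromosome 11 are 14436 bases apart. miR-193b and miR-193 share the seed and 19 of 22 bases, and differ at 3 (C9U, G20A and C21G, counted from the 5′ end with the base of miR-193b first). The miR-365 of both genes is identical at 22 of 22 bases, so its signal is the sum of both clusters and cannot be assigned to either. The seeds of miR-193b and miR-365 differ.

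The values below are log2 of the processed signal after each array was divided by its 75th percentile over the 395 probes well above background on all 16 arrays. A value of 0 therefore equals that percentile, which ran from 401 to 1432 intensity units, and the number of arrays limits the precision. Between 251 and 335 miRNAs were well above background per array, and the mean correlation of an array with the others of its group ran from 0.949 to 0.987. Of the listed markers of the vessel wall, miR-143 and miR-145 of smooth muscle and miR-126-3p of endothelium were well above background on all 16 arrays. This held for 219 of the 321 tested miRNAs, so it is no check of the tissue. miR-126-5p, the other listed endothelial marker, was well above background on 3 arrays and at the floor on all 16. miR-145*, also listed for smooth muscle, was well above background on 0 arrays. Of 2 slides, slide 1 held day 1, day 7 and replicates 1 and 2 of day 28, and slide 2 held the uninjured group, day 14 and the other arrays of day 28, so day 1 and day 7 differ from uninjured in slide too. Some arrays stood out in markers of other cells. Replicate 3 of day 1 had the highest summed striated muscle signal (19.6), and replicate 2 of day 28 had a summed epithelial and glandular signal of 2.14, against 0.146 to 0.168 on the other day 28 arrays. Replicate 3 of the uninjured group had a summed smooth muscle signal of 3.55, against 6.37 and 6.38 on the other uninjured arrays, an erythroid sum of 16.3, against 40.4 and 42.9, and a neuronal sum of 5.09, against 2.38 and 2.71. It was also the lowest of the uninjured arrays for all 3 miRNAs. Replicate 1 of day 14 had a neuronal sum of 0.477, with 3 of 8 markers well above background. Differences are also given without each of these arrays.

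miR-193b was lower in injured than in uninjured arteries on every array of every day. Its scaled log2 signal was 3.35, 3.26 and 2.90 on the uninjured arrays. On day 1 it was 1.39, 2.40 and 1.96, and on day 7 it was 0.74, 0.65 and 1.1. On day 14 it was 1.12, 1.27 and 1.15, and on day 28 it was 1.39, 1.27, 2.09 and 1.77. All 13 injured arrays thus lay below all 3 uninjured ones. Among the 321 tested miRNAs, the share wholly below the uninjured arrays was 15.3% on day 1, 31.5% on day 7, 23.4% on day 14 and 10.9% on day 28. As these contrasts chose miR-193b, nothing is read from its place among them.

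The mean of miR-193b was 0.83 ± 0.23 on day 7, its lowest group, against 3.17 ± 0.24 in uninjured arteries (SD, n = 3 each). This is a log2 difference of -2.34 ± 0.26 (SE), or 5.06-fold lower. The difference was -1.26 ± 0.26 on day 1, -1.99 ± 0.26 on day 14 and -1.54 ± 0.24 on day 28. In a bulk sample such as this, fewer cells that hold a miRNA and less of it per cell cannot be told apart. With slide as a block the day 1 difference shrank to -0.66 and the day 7 difference to -1.74. The block rests on the 4 day 28 arrays, where miR-193b averaged 1.33 on slide 1 and 1.93 on slide 2. Day 14 shares slide 2 with the uninjured arrays, so its difference of -1.99 could not change with the block. Day 28 differed by -1.24 within slide 2. The order of the group means, highest first, was uninjured, day 1, day 28, day 14 and day 7. The arrays of day 1 overlapped those of day 28, and day 28 those of day 14, whereas the gaps above day 1 and between day 14 and day 7 were clear of overlap.

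miR-365, the other product of the cluster, had a different course and was not lower on day 1. Its scaled log2 signal was -0.62, -1.20 and -1.34 on the uninjured arrays. It was -0.45, -0.34 and -0.62 on day 1, and -1.70, -1.62 and -1.43 on day 7. It was -2.64, -2.61 and -2.06 on day 14, and -1.25, -1.73, -1.30 and -1.75 on day 28. The arrays of day 7 and day 14 lay wholly below the uninjured ones, while those of day 1 and day 28 overlapped them. Replicate 1 of the uninjured group was the highest of its 3, close to the lowest day 1 array.

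The lowest mean of miR-365 came on day 14, at -2.44 ± 0.33 against -1.06 ± 0.38 in uninjured arteries (SD, n = 3 each), a log2 difference of -1.38 ± 0.22 (SE) or 2.61-fold lower. The difference was 0.58 ± 0.22 on day 1, -0.53 ± 0.22 on day 7 and -0.45 ± 0.20 on day 28. With slide as a block these 3 were 0.55, -0.56 and -0.47, and day 28 averaged -1.49 on slide 1 and -1.53 on slide 2. The day 1 value depends on the scaling: it was -0.068 when arrays were scaled to their median and -0.049 when the 75th percentile was taken over every mouse probe. Without scaling, day 7 and day 28 turned to 0.44 and 0.18, while the median over all tested miRNAs was then 0.86 and 0.63 higher than in uninjured arteries. The order of the means was day 1, uninjured, day 28, day 7 and day 14. Each neighbour overlapped the next except day 7, whose arrays all lay above those of day 14.

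miR-378 was lower from day 7 on and varied most between arteries of the same day. Its scaled log2 signal was -0.76, -0.81 and -0.99 on the uninjured arrays. It was -2.13, -0.60 and -1.53 on day 1, and -2.95, -2.56 and -1.95 on day 7. It was -2.91, -3.00 and -2.47 on day 14, and -2.23, -2.55, -1.38 and -2.34 on day 28. The day 1 arrays reached both above and below the uninjured ones, and those of day 7, day 14 and day 28 lay wholly below them. The highest arrays of day 1 and day 28, replicate 2 and replicate 3, were also the highest of their day for miR-193b.

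The lowest mean of miR-378 was -2.79 ± 0.28 on day 14, against -0.85 ± 0.12 in uninjured arteries (SD, n = 3 each), a log2 difference of -1.94 ± 0.38 (SE) or 3.84-fold lower. The difference was -0.57 ± 0.38 on day 1, -1.64 ± 0.38 on day 7 and -1.27 ± 0.36 on day 28. With slide as a block, day 1 came to -0.042 and day 7 to -1.11, and within slide 2 day 28 differed by -1.01. The day 28 arrays averaged -2.39 on slide 1 and -1.86 on slide 2. The order of the means was uninjured, day 1, day 28, day 7 and day 14, and every neighbour overlapped the next.

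**Figure D1:**
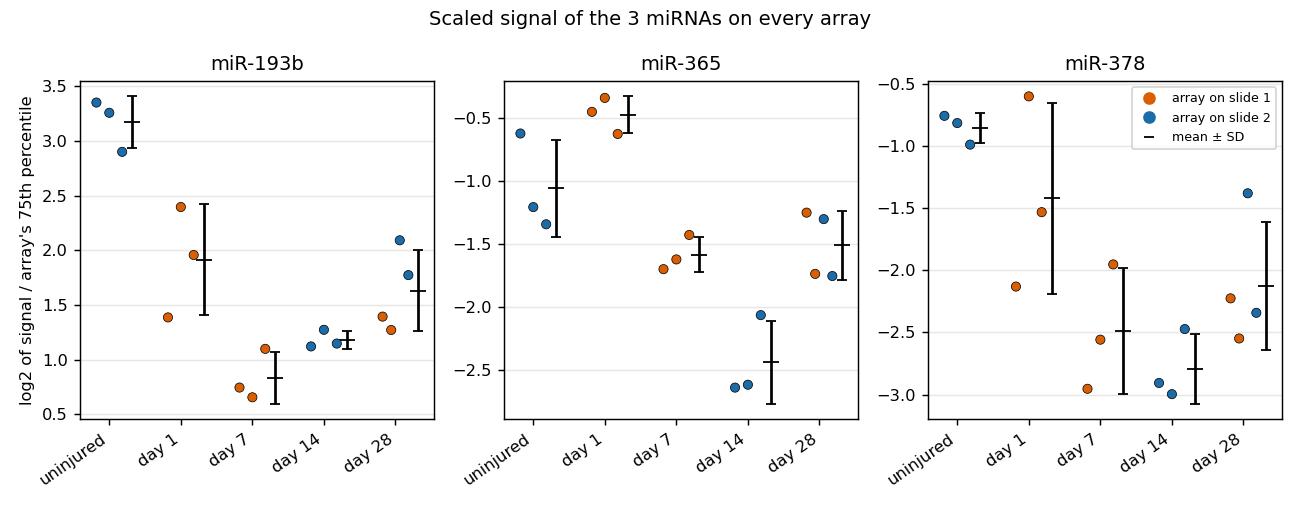
Scaled log2 signal (log2 of signal over the array's 75th percentile) of miR-193b, miR-365 and miR-378 on each of the 16 arrays, from uninjured to day 28. Points are arrays, coloured by slide, and the bars are the group mean ± SD. miR-193b is lower on all 13 injured arrays, miR-365 is highest on day 1, and miR-378 spreads widely on day 1.

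Replicate 3 of day 1 did not carry these differences. Without it, the day 1 difference was -1.28 for miR-193b, 0.66 for miR-365 and -0.51 for miR-378. Without replicate 2 of day 28, the day 28 difference was -1.42 for miR-193b, -0.38 for miR-365 and -1.13 for miR-378. The day 1 difference of miR-378 moved most with single arrays, between -0.98 without replicate 2 and -0.21 without replicate 1 of that day. The day 7 difference of miR-365 was -0.31 without replicate 1 of the uninjured group, and that of day 28 was then -0.24. Without replicate 3 of the uninjured group, the differences on day 1, day 7, day 14 and day 28 were -1.39, -2.47, -2.13 and -1.67 for miR-193b, 0.44, -0.67, -1.53 and -0.60 for miR-365, and -0.64, -1.70, -2.01 and -1.34 for miR-378. Without replicate 1 of day 14, the day 14 difference was -1.96 for miR-193b, -1.28 for miR-365 and -1.88 for miR-378.

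Between day 1 and day 7, which share slide 1, the 3 miRNAs were lower on day 7 by amounts that depended on the scaling. The log2 difference of day 7 from day 1 was -1.08 ± 0.26 for miR-193b, -1.11 ± 0.22 for miR-365 and -1.07 ± 0.38 for miR-378 (SE). It was -0.59, -0.62 and -0.58 in the same order when arrays were scaled to their median, -0.36, -0.39 and -0.35 without scaling, and -1.14, -1.03 and -0.59 with quantile normalization. The arrays of the 2 days did not overlap for miR-193b and miR-365, in a comparison where 35.5% of tested miRNAs lay wholly lower on day 7, and overlapped for miR-378. From day 7 to day 14 the difference was 0.35 ± 0.26 for miR-193b, -0.86 ± 0.22 for miR-365 and -0.30 ± 0.38 for miR-378. The step of miR-193b depended on the probe. Its dimmer probe averaged -0.95 on day 7 and -1.13 on day 14, and the mean over probes gave a step of 0.09. Day 7 and day 14 lie on different slides. In a fit with slide as a block, the steps of the 3 miRNAs were -0.25, -0.82 and -0.83 in the same order. The direction for miR-193b and the size for miR-378 thus depended on whether slide was in the fit. With it, the lowest day of miR-193b was day 14. The slide term rests on the 4 day 28 arrays, 2 on each slide, and the cause of the change was not tested. On day 28 the levels stood above those of day 14 within slide 2, by 0.75 for miR-193b, 0.91 for miR-365 and 0.93 for miR-378. Within slide 1, day 28 stood above day 7 by 0.50, 0.09 and 0.10 in the same order.

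The difference between a pair of miRNAs on 1 array does not depend on the single value by which the array is divided. Quantile normalization can change it: day 7 against day 1 was then -1.14 for miR-193b and -0.59 for miR-378, against -1.08 and -1.07 in the main fit. Its size reflects the probes, so only its change between groups is read. miR-193b minus miR-365 was 2.38 ± 0.48 on day 1 and 2.41 ± 0.13 on day 7, against 4.23 ± 0.25 in uninjured arteries (SD, n = 3 each). It was 3.62 ± 0.36 on day 14 (n = 3) and 3.14 ± 0.40 on day 28 (n = 4). All 13 injured arrays lay below the uninjured range of 3.97 to 4.46, so miR-193b was lower relative to miR-365 at each day. This difference also went with the slide: the 8 arrays of slide 1 ran from 1.83 to 3.00 and the 8 of slide 2 from 3.21 to 4.46. Within day 28 it was 2.64 to 3.00 on slide 1 and 3.39 to 3.52 on slide 2. On slide 2 alone, day 14 (3.21 to 3.89) and the 2 day 28 arrays still lay below the uninjured range.

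The change of miR-378 relative to miR-193b was smaller. miR-193b minus miR-378 was 3.33 ± 0.29 on day 1, 3.32 ± 0.34 on day 7, 3.97 ± 0.33 on day 14 and 3.76 ± 0.28 on day 28, against 4.02 ± 0.12 in uninjured arteries (SD). The uninjured range of 3.89 to 4.11 lay above all arrays of day 1 and day 7, and was overlapped by day 14 and day 28. miR-378 minus miR-365 was -0.95 ± 0.71 on day 1, -0.91 ± 0.37 on day 7, -0.35 ± 0.07 on day 14 and -0.62 ± 0.39 on day 28, against 0.20 ± 0.29 in uninjured arteries. Only day 28 reached into the uninjured range, with its highest array at -0.08 against a lowest uninjured array at -0.14. Within day 28 this difference was -0.98 to -0.81 on slide 1 and -0.59 to -0.08 on slide 2, so it too went with the slide, and the separations of day 1 and day 7 from uninjured set slide 1 against slide 2.

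**Figure D2:**
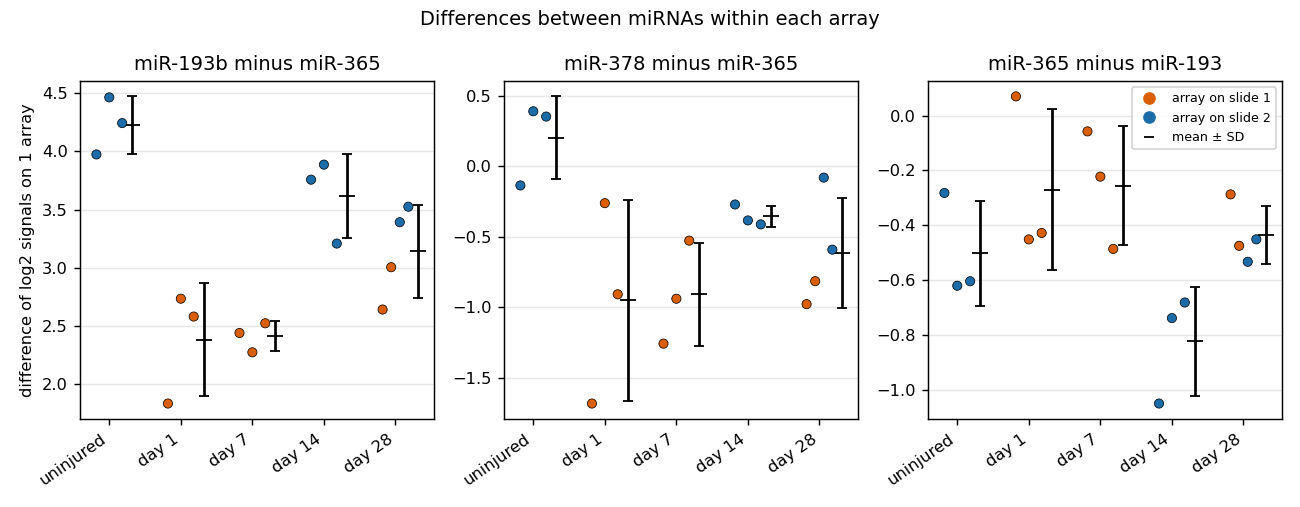
Differences of log2 signal between miRNAs on the same array, for miR-193b minus miR-365, miR-378 minus miR-365, and miR-365 minus miR-193, on the 16 arrays from uninjured to day 28. Points are arrays, coloured by slide, and the bars are the mean ± SD. miR-193b minus miR-365 is lower on all 13 injured arrays and also lower on slide 1 than on slide 2, whereas miR-365 minus miR-193 overlaps between uninjured arteries and day 1, day 7 and day 28.

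Of the 7 relatives listed, 3 were on the array: miR-193, miR-193* and miR-378*. They were not used to choose the set and were tested with limma over all 321 miRNAs, although they come from the same arrays. Over these arrays miR-378* went with miR-378 (r = 0.967) and miR-193 with miR-365 (r = 0.926). Their p-values against uninjured are therefore not independent of the contrasts that chose the members. miR-193, which shares its seed with miR-193b and its cluster with a copy of miR-365, was -0.52, 0.11 and -0.20 on day 1 and -1.64, -1.40 and -0.94 on day 7, against -0.34, -0.58 and -0.74 in uninjured arteries. It was -1.59, -1.87 and -1.38 on day 14 and -0.96, -1.26, -0.77 and -1.30 on day 28. From day 7 on, every array lay below the uninjured ones.

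miR-193 fell by 0.77 ± 0.22 (SE) on the log2 scale on day 7 (limma, adjusted p = 0.0111) and by 1.06 ± 0.22 on day 14 (adjusted p = 0.00226). Among all tested miRNAs, 22.4% fell on day 7 and 19% on day 14. The difference did not pass the test on day 1 (0.35, adjusted p = 0.246) or day 28 (-0.52, adjusted p = 0.0862), although day 28 passed with quantile normalization (-0.69, adjusted p = 0.0303) and from the authors' value table (-0.75, adjusted p = 0.0319). The day 7 call ended with slide as a block (-0.70, adjusted p = 0.195) and without replicate 1 of day 7 (-0.62, adjusted p = 0.0573), and without scaling the difference was 0.19. Slide 2 holds all arrays of day 14 and of the uninjured group, so the day 14 difference could not change there. The day 14 call remained within slide 2 (-1.06, adjusted p = 0.00852), and the difference was -0.40 without scaling (adjusted p = 0.576).

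On the same array miR-365 stayed close to miR-193. miR-365 minus miR-193 was -0.27 ± 0.29 on day 1, -0.26 ± 0.22 on day 7, -0.82 ± 0.20 on day 14 and -0.44 ± 0.11 on day 28, against -0.50 ± 0.19 in uninjured arteries (SD). All arrays of day 14 lay below the uninjured range of -0.62 to -0.28, while those of the other days overlapped it. miR-193b minus miR-193, the difference between the relatives that share a seed, was 2.11 ± 0.19 on day 1, 2.16 ± 0.20 on day 7, 2.79 ± 0.32 on day 14 and 2.70 ± 0.32 on day 28, against 3.72 ± 0.11 in uninjured arteries. It too was lower on slide 1 (1.90 to 2.53) than on slide 2 (2.53 to 3.84), and on slide 2 the uninjured arrays still had the highest values. The probes for miR-193b and miR-193 target sequences that differ at 3 bases, and signal shared between them was not tested.

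miR-378*, the other strand of the miR-378 hairpin, followed miR-378. It was -2.98, -1.56 and -2.28 on day 1 and -3.46, -3.74 and -3.04 on day 7, against -1.83, -2.05 and -2.0 in uninjured arteries. It was -3.51, -3.57 and -3.61 on day 14 and -3.03, -3.35, -2.41 and -3.12 on day 28. As with miR-378, replicate 2 was the highest and replicate 1 the lowest array of day 1. miR-378* fell by 1.45 ± 0.31 (SE) on day 7 (limma, adjusted p = 0.00162), by 1.60 ± 0.31 on day 14 (adjusted p = 0.00122) and by 1.02 ± 0.29 on day 28 (adjusted p = 0.0204). Among all tested miRNAs 9.35% fell on day 28. On day 1 the difference was -0.31 (adjusted p = 0.462). With slide as a block the calls of day 7 (-1.03, adjusted p = 0.150) and day 28 (-0.80, adjusted p = 0.134) ended, while within slide 2 those of day 14 (-1.60, adjusted p = 0.00175) and day 28 (adjusted p = 0.0469) were kept. The day 14 difference itself could not change within slide 2, which holds all arrays of both groups. The day 28 call also ended without replicate 2 of that day (adjusted p = 0.0549) or replicate 1 of the uninjured group (adjusted p = 0.0677), with every miRNA tested (adjusted p = 0.0528), and with the percentile taken over every mouse probe (adjusted p = 0.0538). Without scaling no day was called, with differences of -0.49 on day 7, -0.94 on day 14 and -0.38 on day 28 (adjusted p = 0.445, 0.195 and 0.587). Scaling to the median brought day 1 past the threshold (-0.96, adjusted p = 0.0452).

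miR-378 minus miR-378* was 0.85 ± 0.11 on day 1, 0.92 ± 0.37 on day 7, 0.77 ± 0.32 on day 14 and 0.85 ± 0.12 on day 28, against 1.11 ± 0.11 in uninjured arteries (SD). The strands thus stayed within 0.34 of their uninjured difference on average. miR-193*, the other strand of the miR-193 hairpin, was well above background on 7 of the 16 arrays and lay at -5.79 to -5.01, at or near the floor of -5.79. It had no call at any day (adjusted p from 0.462 to 0.893), and no fold is given.

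**Figure D3:**
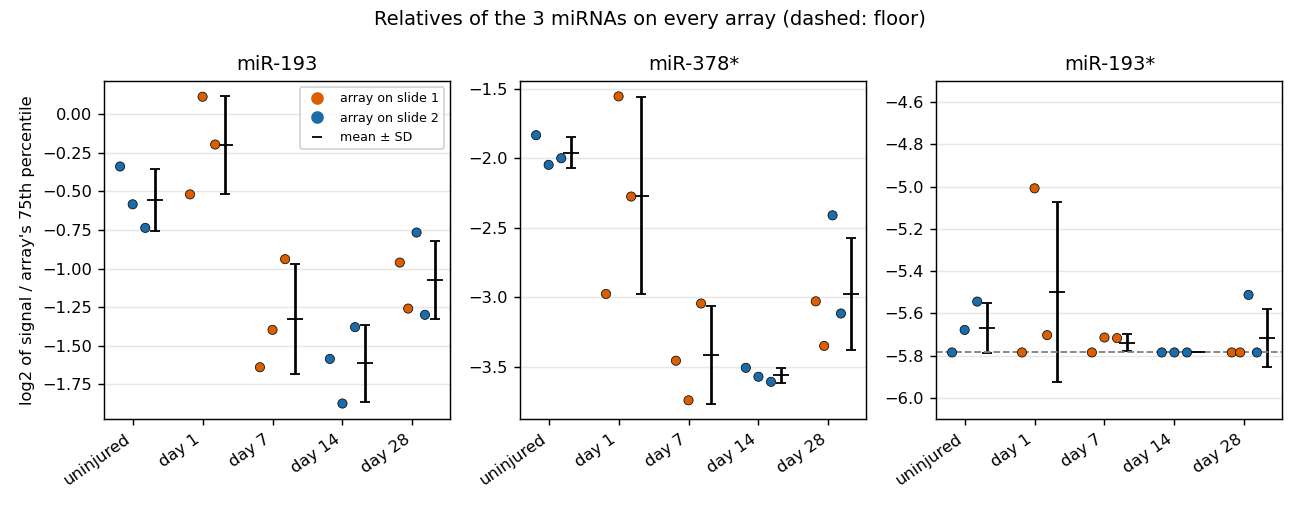
Scaled log2 signal of miR-193, miR-378* and miR-193* on each of the 16 arrays, from uninjured to day 28. Points are arrays, coloured by slide, bars are the mean ± SD, and the dashed line is the floor of -5.79. miR-193 and miR-378* overlap the uninjured range on day 1 and lie below it from day 7 on, and miR-193* stays near the floor.

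Each of the 3 miRNAs had a second, dimmer probe, and it gave the same direction at each day. For miR-193b the second probe differed from uninjured by -0.81 on day 1, -1.73 on day 7, -1.91 on day 14 and -1.24 on day 28. For miR-365 these values were 0.50, -0.61, -1.40 and -0.51, and for miR-378 they were -0.63, -1.75, -2.08 and -1.35. By the dimmer probe, the lowest group of miR-193b was day 14 and not day 7.

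The miRNAs most alike in pattern were ranked by Pearson's r with each member over the 16 arrays, among 320 other tested miRNAs. These arrays share groups, slides and scaling, so r is a description. For miR-193b the 5 highest were miR-30a (r = 0.925, Spearman's rho = 0.965), miR-30a* (0.915 and 0.935), miR-30c-2* (0.902 and 0.891), miR-378* (0.897 and 0.871) and miR-378 (0.894 and 0.824). After each group's mean was taken off, r with miR-193b was 0.80 for miR-30a, 0.90 for miR-378* and 0.84 for miR-378, so miR-193b and the miR-378 strands also went together among arteries of the same day. The 95th percentile of this within-group r over the 320 miRNAs was 0.585.

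For miR-365 the highest was miR-193 (r = 0.926, rho = 0.906), and then came miR-29c (0.806 and 0.779), miR-145 (0.800 and 0.818), miR-143 (0.800 and 0.782) and miR-33 (0.798 and 0.835). Within groups r with miR-365 was 0.73 for miR-193 but 0.20 for miR-145 and 0.21 for miR-143. For miR-378 the highest were miR-378* (0.967 and 0.926), miR-107 (0.914 and 0.906), miR-193b (0.894 and 0.824), miR-193 (0.886 and 0.924) and miR-30e (0.830 and 0.847), and within groups r was 0.89 for miR-378* and 0.90 for miR-193. Without the 2 arrays farthest from the member's median, the r named here for the 3 members stayed between 0.726 and 0.949. miR-193b and miR-365, neighbours in the genome, were at r = 0.518 over all arrays and 0.32 within groups.

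A list of 15 other miRNAs with known roles in fat was read beside them, of which 12 were tested. The list was chosen with earlier results of these data known, so its counts are a description and no independent support for the members. On day 1, 0 of the 12 fell and 1 rose, miR-30b by 0.48 ± 0.17 (SE; limma, adjusted p = 0.0430), while 12.8% of all tested miRNAs fell and 19.6% rose. On day 7, 7 fell and 3 rose, while 22.4% of all fell and 27.4% rose. On day 14, 8 fell and 0 rose, while 19% of all fell and 20.2% rose. On day 28, 1 fell and 2 rose, while 9.35% of all fell and 16.8% rose. The median log2 difference of the list was -0.13 on day 1, -0.47 on day 7, -0.54 on day 14 and 0.20 on day 28, against 0.24, 0.003, 0 and 0.04 over all tested miRNAs. The list's counts depend on the processing: 9 of its 12 members fell on day 1 when arrays were scaled to their median, 0 fell on day 7 without scaling, and with slide as a block 2 fell and 1 rose on day 7. Single arrays decided several calls. The 8 calls of day 14 became 3 without replicate 1 or replicate 3 of day 14, 4 without replicate 2 of the uninjured group, and 5 without day 14 replicate 2, uninjured replicate 1, day 1 replicate 2 or day 28 replicate 3. The 10 of day 7 became 6 without day 7 replicate 1, and the call of miR-30b on day 1 was lost without day 1 replicate 1 or 2, day 7 replicate 2, day 14 replicate 1 or 2, day 28 replicate 3 or uninjured replicate 2.

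miR-30c, of a family that promotes fat cell differentiation, fell by 1.27 ± 0.14 on day 7 (SE; adjusted p = 9.11e-06) and by 1.22 ± 0.14 on day 14 (adjusted p = 2.04e-05). miR-107, which regulates insulin sensitivity in fat and liver, fell by 0.80 ± 0.14 on day 7 (adjusted p = 0.000347), by 0.81 ± 0.14 on day 14 (adjusted p = 0.000474) and by 0.39 ± 0.13 on day 28 (adjusted p = 0.0412). miR-26b, of a family that promotes human fat cell differentiation, fell by 0.72 ± 0.14 on day 14 (adjusted p = 0.00105), and miR-182 was at the floor on all 3 day 14 arrays (adjusted p = 0.0298). Its difference has no exact size, since it was well above background on 1 of these 3 arrays and on 2 of 3 uninjured ones, which ran from -5.06 to -3.31. Moving the other way, miR-148a, which promotes fat cell differentiation, rose by 0.75 ± 0.13 on day 7 (adjusted p = 0.000294) and by 0.56 ± 0.12 on day 28 (adjusted p = 0.00411). miR-335-5p, known to be raised in fat of obese mice, was at -3.93 to -3.18 on day 7, against -5.69 to -4.54 in uninjured arteries (adjusted p = 0.00608), where only 1 of 3 arrays was well above background, so that no fold is given. miR-455* rose by 0.61 ± 0.17 on day 28 (adjusted p = 0.0159). Its other strand, miR-455, is also on the list. It fell by 0.74 ± 0.21 on day 7 (adjusted p = 0.0111) and by 0.60 ± 0.21 on day 14 (adjusted p = 0.0393). On day 28 it was not called (0.35, adjusted p = 0.227). The list, in which strands of a hairpin count separately, therefore held members that rose as well as members that fell.

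**Figure D4:**
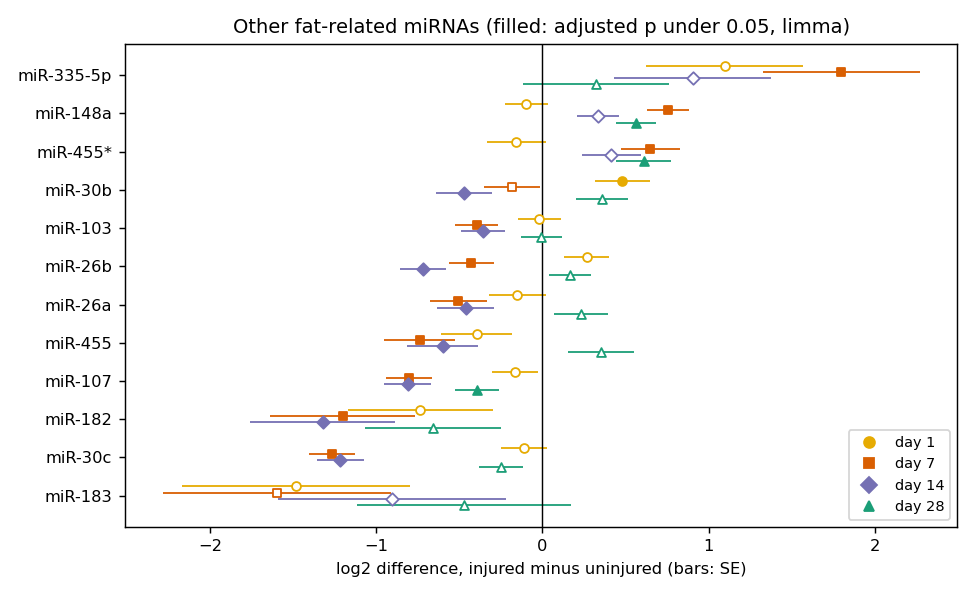
Log2 difference of injured from uninjured arteries (x axis, bars are SE) for the 12 tested miRNAs of the fat-related list, on day 1, day 7, day 14 and day 28. Filled symbols passed limma's adjusted p under 0.05. On day 7 and day 14, 7 and 8 of them fell, with miR-30c at -1.27 and -1.22, and on day 28, 1 fell and 2 rose.

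A list of 13 miRNAs known to restrain fat cell differentiation or browning, all tested, moved both ways. It too was chosen with earlier results of these data known, so its counts are a description. On day 1, 1 fell and 3 rose, on day 7, 4 fell and 6 rose, on day 14, 5 fell and 4 rose, and on day 28, 1 fell and 5 rose. Over the same days the shares of all tested miRNAs that fell were 12.8%, 22.4%, 19% and 9.35%, and those that rose were 19.6%, 27.4%, 20.2% and 16.8%. The list's median difference was 0.16, 0.25, 0.13 and 0.28 over these days, against 0.24, 0.003, 0 and 0.04 over all tested miRNAs. In the fit with slide as a block it had 0 calls on day 1 (2 at an unadjusted p under 0.05), 5 on day 7 and 3 on day 28, and it had 4 on day 14 without replicate 1 of that day. Its day 1 calls became 2 without uninjured replicate 1 or 2 or day 14 replicate 2. miR-34a, which restrains browning of fat in mice, rose by 2.17 ± 0.20 on day 7 (SE; limma, adjusted p = 2.39e-06) and by 2.78 ± 0.20 on day 14 (adjusted p = 2.95e-07). miR-155, which targets the fat cell regulator C/EBPβ and is also made by activated leukocytes, rose by 2.97 ± 0.31 on day 7 (adjusted p = 5.59e-06). miR-221 rose by 1.26 ± 0.24 on day 1 (adjusted p = 0.00139) and by 1.81 ± 0.24 on day 7 (adjusted p = 4.18e-05). miR-138 was at the floor of -5.79 on all 3 arrays of day 7, against -3.96 to -2.31 in uninjured arteries (adjusted p = 0.000794), and as the floor sets this difference no fold is given. miR-27a, which targets the fat cell regulator PPARγ, fell by 0.41 ± 0.15 on day 1 (adjusted p = 0.0479), with overlapping arrays.

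Markers of other cell types moved over the same arrays, and their part in the differences of miR-193b, miR-365 and miR-378 was not tested. Sums are of scaled signal, in multiples of an array's 75th percentile. Striated muscle markers, of which 4 of 7 were tested and miR-208a, miR-208b and miR-499 were well above background on 0 of 16 arrays, summed to 5.73 to 19.6 on day 1, 3.91 to 7.31 on day 7, 3.68 to 6.60 on day 14 and 2.51 to 5.30 on day 28, against 8.03 to 12.3 in uninjured arteries. On day 7, day 14 and day 28 all these sums lay below the uninjured ones, as did the arrays of miR-378, and on day 1 both overlapped them. Of the 4 tested, 0 fell on day 1, 1 on day 7, 2 on day 14 and 3 on day 28, and 0 rose. Among all tested miRNAs 12.8%, 22.4%, 19% and 9.35% fell on these days. The day 1 array with the highest sum, replicate 3, was not the highest for miR-378, miR-193b or miR-365. Each of these was highest on replicate 2, where the sum was 6.97. The day 1 array with the lowest sum, replicate 1 at 5.73, was the lowest of that day for miR-193b and miR-378 but not for miR-365.

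Smooth muscle markers, with 2 of the 3 on the array tested and miR-145* well above background on 0 of 16 arrays, summed to 2.96 to 5.15 on day 1, 1.56 to 1.82 on day 7, 1.07 to 1.12 on day 14 and 1.90 to 2.10 on day 28, against 3.55 to 6.38 in uninjured arteries. Like miR-365 and miR-378, they were lowest on day 14. Both tested members, miR-143 and miR-145, fell on day 7, day 14 and day 28, when 22.4%, 19% and 9.35% of all tested miRNAs fell. Neuronal markers, 7 of 8 tested, summed to 3.39 to 6.83 on day 1, 0.609 to 0.744 on day 7, 0.477 to 1.57 on day 14 and 1.11 to 2.90 on day 28, against 2.38 to 5.09 in uninjured arteries, with miR-9 well above background on only 3 arrays. Leukocyte markers, 5 of 6 tested, with miR-147 well above background on 0 arrays, summed to 26.5 to 29.2 on day 1, 15.1 to 19.9 on day 7, 14.0 to 20.7 on day 14 and 11.8 to 15.5 on day 28, against 2.90 to 3.00 in uninjured arteries. The endothelial sum was 7.05 to 9.82 on day 1, 12.3 to 15.4 on day 7, 12.2 to 13.9 on day 14 and 11.2 to 15.7 on day 28, against 9.70 to 10.3 in uninjured arteries.

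Epithelial and glandular markers, 4 of 7 tested, with miR-200a and miR-205 well above background on 1 of 16 arrays each, summed to 0.154 to 0.181 on day 1, 0.135 to 0.165 on day 7, 0.153 to 0.211 on day 14 and 0.146 to 2.14 on day 28, against 0.219 to 0.397 in uninjured arteries. The sums of all day 1, day 7 and day 14 arrays lay below the uninjured ones. Each uninjured array had only 1 or 2 of the 7 markers well above background. Markers at the floor still add to a sum. Of the 4 tested, 1 was called lower and 0 higher on each day. Only 1 of the 4 lay lower than uninjured on day 14 and on day 28, with list medians of 0.08 and 0.88. One of these markers, miR-375, known from pancreatic islets and other glandular cells, was lower on every day (limma, adjusted p = 0.00197 on day 1, 0.000458 on day 7, 0.00343 on day 14 and 0.00700 on day 28), although on day 28 its arrays overlapped the uninjured ones. It was well above background on 1, 0 and 3 of the 3 arrays of day 1, day 7 and day 14 and on 2 of 4 on day 28, against 3 of 3 uninjured arrays, and was at least 8.64-fold lower on day 7. Its mean, like that of miR-193b, was thus lower from day 1 on. Of all tested miRNAs, 12.8% fell on day 1, 22.4% on day 7, 19% on day 14 and 9.35% on day 28. Erythroid markers, all 3 tested, summed to 27.7 to 63.0 on day 1, 15.1 to 27.7 on day 7, 15.2 to 25.01 on day 14 and 24.97 to 41.6 on day 28, against 16.3 to 42.9 in uninjured arteries. None of the 3 passed limma's threshold on any day against uninjured (0 of 3, with miR-486 at an unadjusted p of 0.0277 on day 7).

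**Figure D5:**
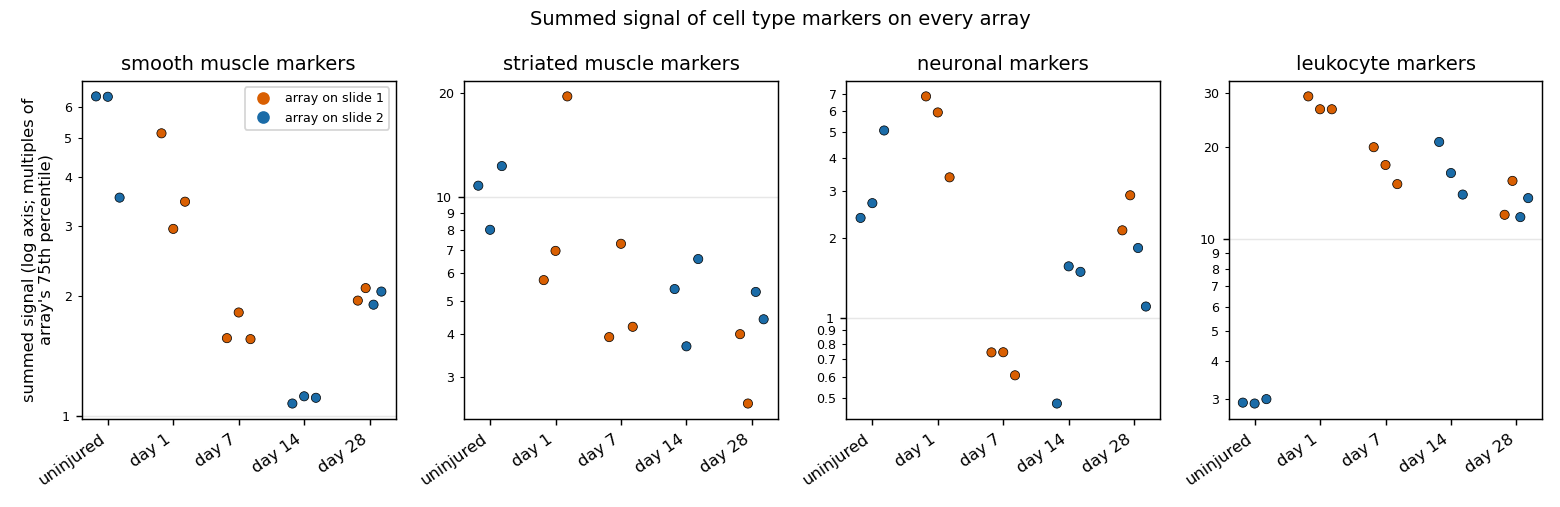
Summed scaled signal (log axis, multiples of the array's 75th percentile) of smooth muscle, striated muscle, neuronal and leukocyte marker miRNAs on each of the 16 arrays, from uninjured to day 28. Points are arrays, coloured by slide. Smooth muscle markers are lowest on day 14 (1.07 to 1.12), 1 array of day 1 stands out in striated muscle markers (19.6), and leukocyte markers are higher on every injured array than on the uninjured ones.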

How the data were processed

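Per the file headers, the authors' scanner files were made with Agilent Feature Extraction 9.5.1.1 and hold the intensity of each spot after removal of background and spatial trend, with no scaling between arrays. The deposited value table is of linear intensity: 99.97% of its values lie within 0.1% of the scanner files' total gene signal. Its column medians ran from 3.81 to 16.6, so it is uncentred, and as single-sample signal it has no ratio direction. How background was estimated upstream is not given in the sources used here.

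Unmarked spots of a probe were averaged, divided by the array's 75th percentile over the 395 probes well above background on all arrays, raised to a floor of 0.0181 where lower, and log2 was taken from these deposited values. The brightest probe stood for a miRNA. A miRNA was tested if each array of some group had it well above background, which held for 321 miRNAs, 219 of them detected on all arrays.

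limma 3.58.1 in R 4.3.3 fitted the 5 groups without covariates (prior degrees of freedom 1.98), with Benjamini-Hochberg adjustment per comparison over all 321 and calls at an adjusted p under 0.05. Probes were of the Sanger release 12 design. Only the limma step was tested on simulated data, drawn as normal values without background, scaling, floor, filter or slide. It called 65.6% of simulated log2 differences of size 1 for day 7 against uninjured and 69.2% for day 28. Of differences of 0 it called 0.785% and 0.862%. The members and lists were chosen with earlier results of these data known. Named were the members, their relatives, up to 4 miRNAs of each list per day with the smallest p, and for each member the 5 miRNAs with the highest r. miR-455 was named as the other strand of miR-455*. Alternatives were other backgrounds, scalings, filters and probe rules, the value table, slide or replicate number as a block, slide 2 only, only the groups compared, and each array left out.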

Additional observations from a re-analysis of the deposited data

Results flagged for a closer look

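A pair of relatives had effects of injury that differed between day 1 and day 7, by the direct test of day 7 against day 1 (both on slide 1). miR-193 averaged -1.33 ± 0.36 on day 7 and -0.20 ± 0.32 on day 1 (SD, n = 3 each), a log2 difference of -1.12 ± 0.22 (SE; limma, adjusted p = 0.00127), in a comparison where 79 of 321 tested miRNAs fell. miR-378* averaged -3.41 ± 0.35 on day 7 and -2.27 ± 0.71 on day 1, a difference of -1.14 ± 0.31 (adjusted p = 0.00999). All 3 arrays of day 7 lay below all 3 of day 1 for both, as they did for 35.5% of the 321 tested miRNAs. The size follows the scaling: with arrays scaled to their median the differences were -0.63 (adjusted p = 0.0980) and -0.65 (adjusted p = 0.146), and without scaling they were -0.40 (adjusted p = 0.539) and -0.42 (adjusted p = 0.553). With the 75th percentile over all mouse probes they were -0.64 (adjusted p = 0.155) and -0.66 (adjusted p = 0.189), and miR-378* was -0.59 with quantile normalization (adjusted p = 0.247).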

How the results depend on the processing

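Of 342 values of the 3 miRNAs under all alternatives, 322 moved by less than the spread between arrays of a group and 20 by more, and the cause of the shifts was not tested. Many of the 342 could not move, because a changed filter or an array left out of another group leaves the group means unchanged. The 322 are thus not a measure of stability. The mean of miR-193b stayed lower than uninjured on all 4 days under every alternative run, and so did that of miR-378. For miR-378 on day 1, where the arrays overlapped the uninjured ones, the difference ran from -1.22 to -0.042 over the alternatives other than arrays left out. As these contrasts chose the members, a kept sign is a description only. Counts are limma calls, and beside a count of 0 stands the count at an unadjusted p under 0.05.

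Scaling by a single value per array shifts every miRNA above the floor together. Without scaling, the median over all tested miRNAs was 0.43 higher than uninjured on day 1, 0.86 on day 7, 0.52 on day 14 and 0.63 on day 28. miR-193b then differed by -1.37 on day 7, -1.33 on day 14 and -0.90 on day 28, miR-365 by 0.44, -0.72 and 0.18, and miR-378 by -0.67, -1.28 and -0.63. miR-193 turned to 0.19 on day 7 and 0.12 on day 28. Calls over all miRNAs were 36 on day 1 (2 lower, 34 higher, against 41 and 63 in the scaled data), 72 on day 14 (4 and 68, against 61 and 65) and 78 for day 7 against day 1 (11 and 67, against 79 and 60). Those of day 7 split into 9 lower and 122 higher, against 72 and 88, and those of day 28 into 1 and 60, against 30 and 54. None was called for day 14 against day 7 (0, with 31 unadjusted) or day 28 against day 14 (0, with 19 unadjusted). The fat-related list had 0 calls on day 1 (0 unadjusted), 3 on day 7, 0 on day 14 (2 unadjusted) and 1 on day 28, and the restraining list 1 on day 1 and 4 on day 14.

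With arrays scaled to their median, the day 1 differences were -1.91 for miR-193b, -0.068 for miR-365, -1.22 for miR-378 and -0.30 for miR-193, and miR-365 differed by -0.73 on day 28. The median over all miRNAs was then -0.34 on day 1, against 0.24, and the day 1 calls split into 103 lower and 17 higher. On day 14 the split was 76 and 52, on day 28 it was 41 and 30, and for day 7 against day 1 it was 36 and 103. The fat-related list had 9 calls on day 1 and 1 on day 28, and day 28 against day 14 had 31 calls. With the 75th percentile over all mouse probes, the day 1 differences were -1.89 for miR-193b, -0.049 for miR-365, -1.20 for miR-378 and -0.28 for miR-193, the all-miRNA median was -0.31, and the day 1 split was 95 and 17. Here day 7 against day 1 split into 33 and 99. The fat-related list had 9 calls on day 1, 5 on day 14 and 0 on day 28 (2 unadjusted), day 14 against day 7 had 2 calls and day 28 against day 14 had 25. With quantile normalization the day 1 split was 71 and 30 and that of day 7 against day 1 was 47 and 87. The fat-related list then had 3 calls on day 1, 5 on day 14 and 1 on day 28, the restraining list 2 on day 1, and day 14 against day 7 had 19.

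With normexp background, calls were 41 on day 1, 105 on day 7, 82 on day 14 and 52 on day 28, and 78, 11 and 28 in the successive comparisons of days. The fat-related list had 0 calls on day 1 (2 unadjusted), 5 on day 7 and 1 on day 28, and the restraining list 2 on day 1. The day 1, day 7, day 14 and day 28 splits were 25 and 16, 56 and 49, 50 and 32, and 29 and 23. With no filter the restraining list had 2 calls on day 1 and 4 on day 14, and the fat-related list 5 on day 14. With the mean over probes the restraining list had 2 on day 1 and 5 on day 14. From the value table, the fat-related list had 0 calls on day 1 (2 unadjusted) and 1 on day 28, day 14 against day 7 had 5 calls and day 28 against day 14 had 25, the day 28 split was 44 and 36, and miR-378* differed by 0.016 between day 14 and day 7.

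With slide as a block, miR-193b differed by -0.66 on day 1 and -1.74 on day 7, miR-378 by -0.042 and -1.11, and miR-378* by 0.12 on day 1. Calls were 30 on day 1, 91 on day 7 and 55 on day 28. They were 0 for day 14 against day 7 (29 unadjusted) and 28 for day 28 against day 14. The fat-related list had 0 calls on day 1 (0 unadjusted), 3 on day 7 and 1 on day 28, and the restraining list 0 (2 unadjusted), 5 and 3. Within slide 2, calls were 55 on day 28 and 0 for day 28 against day 14 (81 unadjusted), and the fat-related list had 3 on day 14 and 0 on day 28 (2 unadjusted). With only the 2 groups compared, calls were 44 on day 28 and 61 for day 14 against day 7, and the fat-related list had 0 on day 1 (1 unadjusted), 3 on day 14 and 1 on day 28.

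Replicate numbers did not pair the arrays: same-numbered arrays of different groups had a median correlation of -0.06 over 30 pairs (-0.45 to 0.56), and 5 of 15 arrays correlated best with their own number. With the replicate number as a block, the fat-related list had 0 calls on day 1 (3 unadjusted), the restraining list 2, and day 14 against day 7 had 16. The call of miR-378* on day 28 ended (adjusted p = 0.0654).

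Leaving out single arrays gave 69 (without uninjured replicate 2) to 117 calls on day 1, 1 (without day 14 replicate 2) to 49 for day 14 against day 7, and 21 (without day 14 replicate 1) to 55 for day 28 against day 14. The fat-related list ranged from 0 to 1 on day 1, 6 to 10 on day 7 and 3 to 8 on day 14, and the restraining list from 2 to 4 on day 1 and 4 to 9 on day 14. miR-378* ranged from -0.66 to 0.045 on day 1 and from -0.31 to 0.036 between day 14 and day 7, turning positive without day 1 replicate 1 and without day 7 replicate 3.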
